A study of Mus musculus with 6 samples.

Results

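Toll-like receptors are membrane receptors that detect microbial molecules and products of injured cells, and CD14 is a surface protein that hands lipopolysaccharide and lipoproteins to them. The genes examined here are the 9 receptor genes Tlr1, Tlr2, Tlr3, Tlr4, Tlr6, Tlr7, Tlr8, Tlr9 and Tlr13, together with Cd14. They were chosen by symbol, because the scavenger receptor CD36 acts as a co-receptor of TLR2, TLR4 and TLR6. All 10 were found among the 21851 genes with a symbol, and all 10 passed the filter on low counts. The libraries are 3 labelled CD36 CKO, a conditional knockout of Cd36, and 3 labelled CD36 flox, the floxed controls. Each was made from mouse retinal cells sorted for CD45 and an intermediate level of CD11b, which the labels call microglia. The treatment protocol, written for all libraries, describes an intravenous dose of 20 mg/kg sodium iodate, a toxicant of the pigment epithelium behind the retina. Mice given buffer served as controls, and tissue was taken 7 days later. The labels used here do not say which library came from an iodate-injected or a buffer-injected mouse, which Cre deletes Cd36 or in which cells, nor the age or sex of the mice.

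In macrophages and microglia, receptors at the cell surface (TLR1, TLR2, TLR4 and TLR6) mainly bind bacterial lipids, and receptors inside endosomes (TLR3, TLR7, TLR8, TLR9 and TLR13) bind nucleic acids. TLR2 pairs with TLR1 or TLR6, and TLR4 works with the small protein MD-2 and with CD14. Most of them signal through the adaptor MyD88 to NF-κB, while TLR3 uses the adaptor TRIF and TLR4 uses either. CD36 has been described as a partner of TLR2 with TLR6, and of TLR4 with TLR6, in the sensing of bacterial diacylglycerides and of oxidised lipoproteins.

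The libraries held 13462683 to 20018910 counts. The homeostatic microglial genes Cx3cr1, P2ry12 and Tmem119, and all 12 genes of a pan-macrophage list, had counts in every library. Rod photoreceptor genes, 10 in number, were also counted in all 6, at a summed 8420 to 21516 CPM (counts relative to the TMM-scaled library total). CKO 2 and CKO 3 share a description code apart from the eye it names, as do flox 2 and flox 3, so each of these pairs can be the eyes of 1 mouse, and p-values over 3 libraries against 3 would then be too small. Nothing in the labels states that the other libraries came from separate mice. Cd36 itself was at 122, 65.2 and 28.5 CPM in CKO 1 to 3 as labelled, against 90.5, 193 and 144 CPM in flox 1 to 3. On the log2 scale Cd36 differed by -0.98 (SE 0.51), which did not pass the edgeR test (adjusted p = 0.9996). The library labelled CKO 1 thus lay within the flox range, and every direction given here rests on the labels.

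Tlr1 and Tlr6 need their sequence shown before their values, because their counts are not independent. Both lie on chromosome 5 on the minus strand (GRCm38), Tlr1 at 64924679 to 64933563 and Tlr6 at 64952031 to 64960097, with 18467 bases between them. Their counts were not whole numbers in any of the 6 libraries, but the sum of the pair was whole in all 6 (within 0.0051), and each of the other 8 genes had whole counts throughout (within 0.001). In the GENCODE M21 transcripts, the coding sequences of Tlr1 (2385 bases) and Tlr6 (2418 bases) matched at 74.8% of their aligned bases. Their longest identical stretch was 229 bases, and 19.4% of all stretches of 50 bases in the Tlr1 coding sequence were also present in Tlr6. No other pair of the 10 coding sequences shared a run of more than 16 bases. The identical stretch, printed in full because any read that falls inside it matches both genes, covers coding bases 1468 to 1696 of Tlr1 (chr5:64925537-64925765) and 1507 to 1735 of Tlr6 (chr5:64953828-64954056):
Tlr1 and Tlr6: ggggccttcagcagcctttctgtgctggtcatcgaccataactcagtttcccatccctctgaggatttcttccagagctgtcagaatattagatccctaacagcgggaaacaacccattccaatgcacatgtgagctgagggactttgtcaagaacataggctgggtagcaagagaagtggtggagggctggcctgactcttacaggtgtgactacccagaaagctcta

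How the reads of the pair were divided is not given in the sources used here, so the separate levels of Tlr1 and Tlr6 are uncertain and their sum is the firmer value. The summed counts, not scaled for library totals, were 666, 880 and 1043 in CKO 1 to 3, against 886, 920 and 611 in flox 1 to 3. CKO 2 had the smallest total, so these counts do not compare levels between libraries. With scaling, the sum had a log2 fold change of 0.38 (SE 0.23) in the edgeR fit. Tlr6 took 21.2%, 20.0% and 19.1% of the pair in CKO 1 to 3, against 19.6%, 29.2% and 24.1% in flox 1 to 3. The groups overlapped, with a mean of 20.1% ± 1.07 in CKO and 24.3% ± 4.83 in flox (SD, n = 3 each, two-sided exact permutation p = 0.3, where 3 against 3 cannot go below 0.1).

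RefSeq promoter windows (GRCm38.p6) were at hand for 7 of the 10 members, 9 windows in all, and the 250 bases before each RefSeq start were searched on both strands. The NF-κB consensus was found in Tlr2 and Tlr3, and in 3.90% of 32851 windows over all genes, and GAGGAAG, a core bound by the macrophage factor PU.1, was found in Tlr1, Tlr9 and Tlr13, and in 10.6% of all windows. The NF-κB matches of Tlr2, the receptor the ratios below turn on, and of Tlr3 are shown with 30 bases each, with the match in capitals. That of Tlr2 (chr3:83841762-83841791, minus strand) holds 2 overlapping matches, and that of Tlr3 lies at chr8:45410572-45410601 on the minus strand:
Tlr2: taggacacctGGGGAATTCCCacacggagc
Tlr3: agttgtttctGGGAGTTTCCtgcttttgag
RefSeq and GENCODE place the starts differently: by the GENCODE positions given here for each gene, the Tlr3 stretch lies inside the gene and the Tlr2 stretch overlaps its first bases. A match describes these letters and not a bound site.

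Compared per length, as TPM over the exons of each gene in GENCODE M21, Cd14 stood first and Tlr2 second in each of the 6 libraries. Cd14 had 388 ± 111 TPM in CKO and 405 ± 93.4 TPM in flox, and Tlr2 had 98.4 ± 29.01 TPM in CKO and 129 ± 35.2 TPM in flox (SD, n = 3 each). Tlr13, Tlr7 and Tlr1 filled the next places, down to the fifth, in every library. Their medians over all 6 libraries were 38.1, 35.7 and 22.3 TPM, and the ranges of Tlr13 (31.999 to 48.7 TPM) and Tlr7 (19.5 to 45.9 TPM) overlapped, so that the order of these neighbours is not resolved. Tlr6 was eighth in every library, at a median of 5.52 TPM. Tlr3 and Tlr4, with medians of 8.49 and 8.05 TPM, changed places between libraries, and in CKO 2 Tlr3 was ninth, below Tlr6 and Tlr8. At the low end Tlr8 and Tlr9 had medians of 3.60 and 2.65 TPM, with Tlr9 last in CKO 1, CKO 2, CKO 3 and flox 3 and Tlr8 last in flox 1 and flox 2. The bacterial-lipid receptors Tlr1, Tlr2, Tlr4 and Tlr6 together made up 60.9% to 61.5% of the summed receptor TPM in the CKO libraries and 61.9% to 66.5% in the flox libraries, a sum that is mostly Tlr2.

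**Figure D1:**
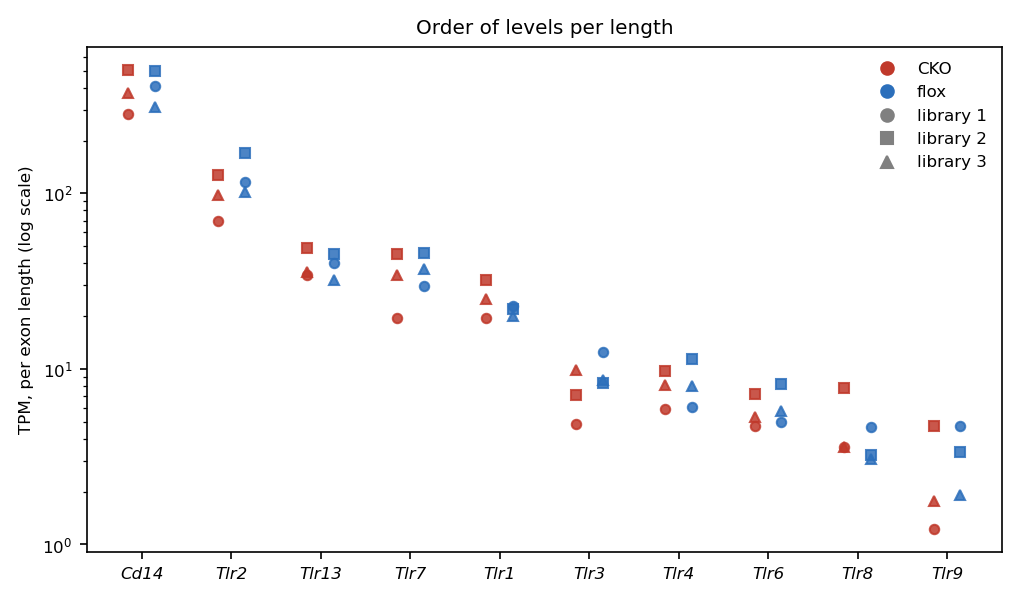
Level of each gene in TPM (per exon length, log scale) in the 6 libraries, with CKO in red left of flox in blue and the marker shape giving the library number. Cd14 and Tlr2 stand first and second in every library, and the CKO and flox points of each gene overlap.

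No member passed the test between CKO and flox, which was edgeR's quasi-likelihood test on 13477 genes, with p-values adjusted by the Benjamini-Hochberg method. In that test 0 of the 10 were called, and the background was also 0 calls (0%). At an unadjusted p under 0.05 there were 0 of 10 members, where 2.81% of all tested genes stood (1.37% lower and 1.45% higher in CKO). The log2 fold change of CKO over flox was above 0 for 7 members and below 0 for 3, with a median of 0.10 beside a median of 0.00 over all tested genes. The CKO and flox values overlapped for all 10 members, where 8.0% of all tested genes had groups that did not overlap (4.12% lower and 3.88% higher in CKO). All 10 members had an adjusted p of 0.9996 in this edgeR fit. DESeq2 called 0 members as well, with 16 genes called in all (0.119% of those with an adjusted p). It put 0 members at an unadjusted p under 0.05, where 3.62% of all genes stood, the smallest being 0.0909 for Tlr1.

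Cd14, on chromosome 18 at 36725067 to 36726798, was at 242, 480.1 and 335 CPM in CKO 1 to 3, against 322, 394 and 233 CPM in flox 1 to 3. Its group means were 352 ± 120.1 CPM in CKO and 316 ± 80.4 CPM in flox (SD, n = 3 each). CKO 2 was the highest library and CKO 1 lay beside flox 3 at the low end, so the groups overlapped. The log2 fold change was 0.15 (SE 0.29), with a 95% interval of -0.50 to 0.81.

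Tlr2, the shared subunit of the lipoprotein receptors (chromosome 3, 83836272 to 83841767), was at 103, 211 and 152 CPM in CKO 1 to 3, against 158, 233 and 134 CPM in flox 1 to 3. The highest library was flox 2 and the lowest CKO 1, with the other 4 between them. The log2 fold change was -0.17 (SE 0.30, 95% interval -0.86 to 0.52). Of its partners, Tlr1, which with TLR2 recognises triacylated lipoproteins, was at 32.2, 59.0 and 43.4 CPM in CKO, against 34.5, 33.7 and 29.3 CPM in flox. CKO 2 and CKO 3 lay above all flox libraries and CKO 1 lay among them. Its log2 fold change of 0.46 (SE 0.24, 95% interval -0.08 to 1.01) had the smallest p of the 10 members, an unadjusted 0.0864. Tlr6, which with TLR2 recognises diacylated lipoproteins, was at 8.64, 14.7 and 10.2 CPM in CKO, against 8.43, 13.9 and 9.29 CPM in flox. In each group library 2 was the highest and library 1 the lowest, and the ranges nearly coincided. Its log2 fold change was 0.08 (SE 0.32, 95% interval -0.65 to 0.82). With the reads of Tlr1 and Tlr6 summed into 1 gene, the log2 fold change was 0.38 (SE 0.23, adjusted p = 0.9996 by edgeR).

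Tlr4, the lipopolysaccharide receptor (chromosome 4, 66827584 to 66930284), was at 16.1, 29.7 and 23.2 CPM in CKO 1 to 3, against 15.4, 28.97 and 19.3 CPM in flox 1 to 3. The ranges nearly coincided here too, with a log2 fold change of 0.12 (SE 0.31, 95% interval -0.60 to 0.83). Ly96, which encodes MD-2, its lipopolysaccharide-binding partner, was at 28.8, 58.2 and 48.0 CPM in CKO and 34.2, 34.8 and 28.1 CPM in flox, with a log2 fold change of 0.47 (SE 0.26, adjusted p = 0.9996 by edgeR). As with Tlr1, CKO 2 and CKO 3 lay above the flox libraries and CKO 1 among them.

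**Figure D2:**
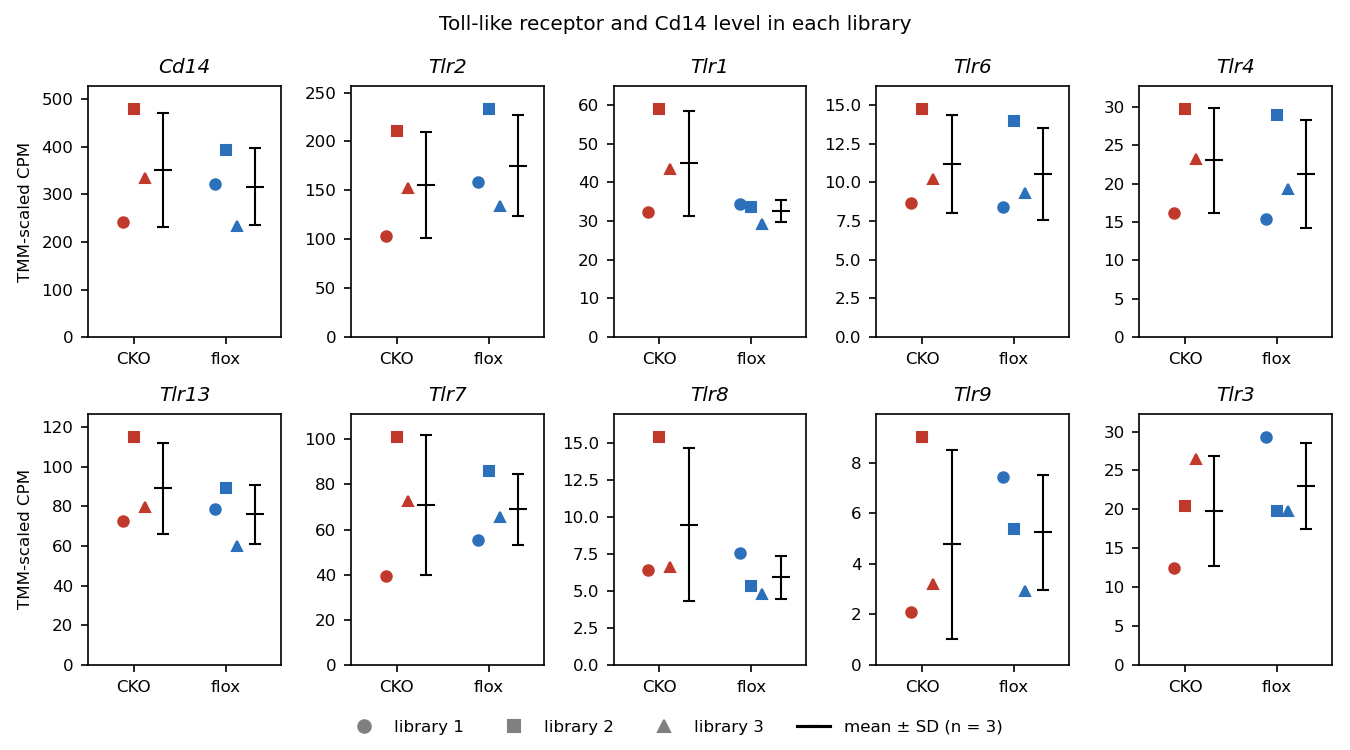
Level of each gene in TMM-scaled CPM, with CKO left of flox in each panel, a marker for each library and the mean ± SD (n = 3) in black. The groups overlap in all 10 panels, and CKO 2 is the highest library in 8 of them.

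Among the endosomal receptors, Tlr13, a mouse receptor for bacterial ribosomal RNA (chromosome X, 106143204 to 106160493), was at 72.6, 115 and 79.5 CPM in CKO 1 to 3, against 78.8, 89.2 and 60.0 CPM in flox 1 to 3. Tlr7, a sensor of single-stranded RNA (chromosome X, 167304929 to 167330558), was at 39.2, 101 and 72.5 CPM in CKO, against 55.3, 85.9 and 65.6 CPM in flox. Its CKO values spanned the whole flox range. The log2 fold changes were 0.23 for Tlr13 (SE 0.23, 95% interval -0.30 to 0.76) and 0.04 for Tlr7 (SE 0.33, 95% interval -0.73 to 0.81).

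Tlr8, the neighbour of Tlr7 with 40599 bases between them (chromosome X, 167242696 to 167264329) and also an RNA sensor, was at 6.38, 15.4 and 6.63 CPM in CKO, against 7.56, 5.34 and 4.81 CPM in flox. Its log2 fold change of 0.68 was the highest of the 10 members (SE 0.43, 95% interval -0.31 to 1.66). It rests on CKO 2, without which it was 0.13. Tlr9, the receptor for unmethylated CpG DNA (chromosome 9, 106222598 to 106226883), was at 2.08, 9.04 and 3.19 CPM in CKO, against 7.46, 5.39 and 2.91 CPM in flox. With 34 to 154 counts a library it was the least counted member, and its interval was the widest, from -1.58 to 1.28 around a log2 fold change of -0.15 (SE 0.62). Without CKO 2 the value was -1.0. Tlr3, the receptor for double-stranded RNA (chromosome 8, 45395665 to 45411080), was at 12.4, 20.4 and 26.5 CPM in CKO, against 29.3, 19.8 and 19.7 CPM in flox, with a log2 fold change of -0.21 (SE 0.31, 95% interval -0.92 to 0.50). An antisense transcript on the opposite strand, Gm45542, shares 381 exon bases with Tlr3, and without a stated strand setting their reads cannot be told apart. None of the other 9 overlapped an annotated gene.

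Tlr7, Tlr8 and Tlr13 are X-linked, and the sex of the mice is not labelled. The summed level of 4 Y-linked genes was 0.429, 0.670 and 0.771 CPM in CKO 1 to 3, against 146, 10.4 and 29.5 CPM in flox 1 to 3. All 3 CKO libraries thus lay below all 3 flox libraries. In this design Y-linked expression cannot be told apart from the label, for any member or ratio given here. Its part in the values of the members, X-linked or not, was not tested. The intervals above include a 2-fold difference for Tlr1, Tlr8 and Tlr9, and a member's adjusted p of 0.9996 does not show that its levels were alike in CKO and flox.

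**Figure D3:**
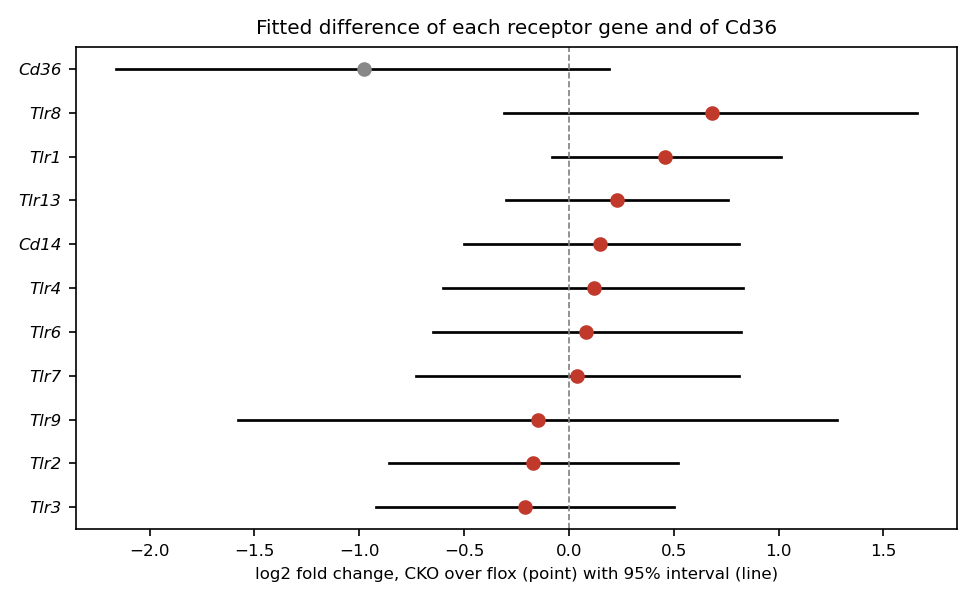
Fitted log2 fold change of CKO over flox (points) with its 95% interval (lines) for the 10 receptor genes and, in grey, for Cd36. Every interval crosses 0, with Tlr8 highest at 0.68, Tlr3 lowest of the members at -0.21 and Cd36 at -0.98.

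Most members were high and low in the same libraries. CKO 2 was the highest library for 8 of the 10 (Cd14, Tlr1, Tlr4, Tlr6, Tlr7, Tlr8, Tlr9 and Tlr13), and CKO 1 or flox 3 the lowest for 4 each. The TMM factor of CKO 2, 0.888, was the lowest of the 6 libraries. How many of all tested genes were highest in CKO 2 was not counted, so this is not shown to be particular to the members. The summed level of the 12 pan-macrophage genes, which include Csf1r, Tyrobp, Fcer1g, Spi1 and Ctss, was also highest in CKO 2. It was 20022, 38115 and 31633 CPM in CKO 1 to 3, against 23485, 26984 and 22386 CPM in flox 1 to 3. The cathepsin gene Ctss supplied 32.7% to 43.8% of that sum. Expressed per pan-macrophage count, 9 of the 10 members varied less over the 6 libraries, and the median coefficient of variation was 17.5%, against 28.3% in CPM. Tlr3 was the exception. The share of all tested genes that varied less on that scale was not computed, so this is not shown to be particular to the members. In bulk samples such as these, fewer macrophages and less RNA per macrophage cannot be told apart.

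**Figure D4:**
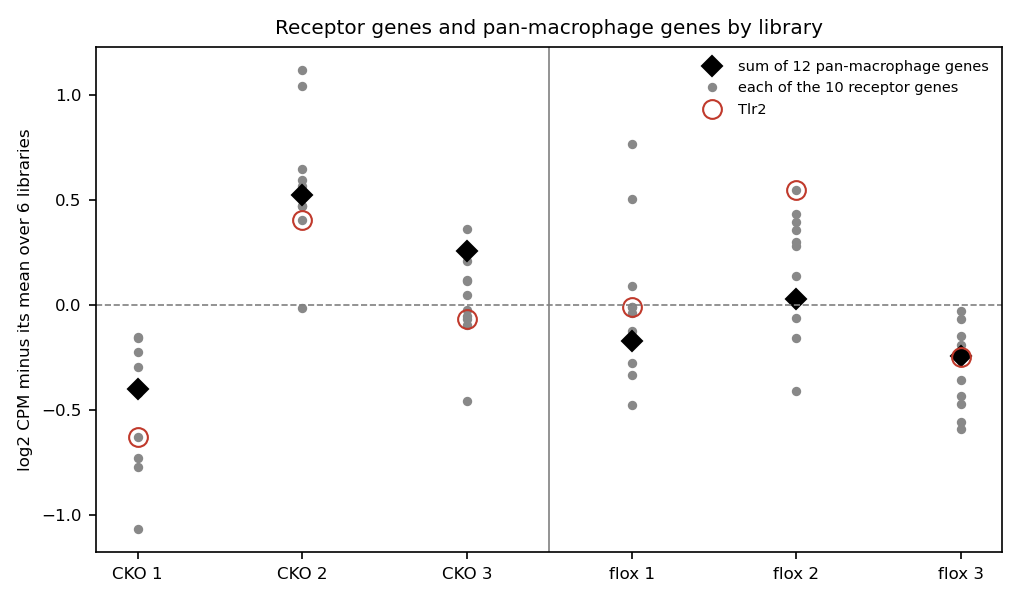
Log2 CPM of each receptor gene (grey points, Tlr2 ringed in red) and of the summed 12 pan-macrophage genes (black diamonds) in each library, minus its own mean over the 6 libraries. Most receptor genes lie high in CKO 2 and low in CKO 1 and flox 3, as the pan-macrophage sum does. Tlr2 lies below that sum in the 3 CKO libraries, and so does Tlr4, though only narrowly in CKO 1.

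Ratios within a library need no scaling factor, and these were added after the levels had been seen. Tlr2 made up 42.6%, 44.0% and 44.1% of the summed receptor TPM in CKO 1 to 3, against 47.9%, 53.4% and 46.8% in flox 1 to 3. All 3 CKO values lay below all 3 flox values, with means of 43.6% ± 0.823 in CKO and 49.4% ± 3.53 in flox (SD, n = 3 each). Tlr1 went the other way, at 11.97%, 11.1% and 11.3% in CKO against 9.40%, 6.95% and 9.20% in flox, again without overlap. Neither passed a test: the two-sided exact permutation p was 0.1 for both, the smallest that 3 against 3 allows, and 0.45 after Benjamini-Hochberg adjustment over the 9 receptors. The other 7 shares overlapped between the groups. Set over the same receptor sum per length, 3.43% of 12961 other tested genes did not overlap. The 9 shares add up to the whole and Tlr2 is the largest of them, so a lower share of Tlr2 raises the others, and the shares of Tlr1 and Tlr2 are not separate results.

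The ratio of Cd14 to Tlr2 in TPM was 4.08, 3.96 and 3.82 in CKO 1 to 3, against 3.53, 2.94 and 3.02 in flox 1 to 3, without overlap. On the log2 CPM scale, 3 of the 9 ratios with Tlr2 did not overlap (with Tlr1, Tlr13 and Cd14), each with Tlr2 relatively lower in CKO, where 3.99% of all other tested genes had such a ratio to Tlr2 (3.39% with Tlr2 relatively lower in CKO). Over all 45 pairs of members, 4 did not overlap (8.89%), the other pair being Tlr8 and Tlr9, beside 8.11% of all pairs of tested genes, so the members as a set stand near the background. These permutation p-values were 0.1 (exact, two-sided) and 0.667 after adjustment over the 45 pairs. The log2 ratio of Tlr1 to Tlr2 was 0.62 higher in CKO than in flox, and 0.54 higher with the reads of Tlr1 and Tlr6 summed.

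Per 1000 pan-macrophage counts, Tlr2 had 5.16, 5.54 and 4.82 counts in CKO 1 to 3, against 6.75, 8.65 and 5.999 in flox 1 to 3. It was the only member whose groups did not overlap on that scale, where 7.44% of all tested genes did not overlap, 6.57% being lower in CKO. The edgeR fit with that scaling gave a log2 fold change of -0.46 for Tlr2, with an unadjusted p of 0.132.

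**Figure D5:**
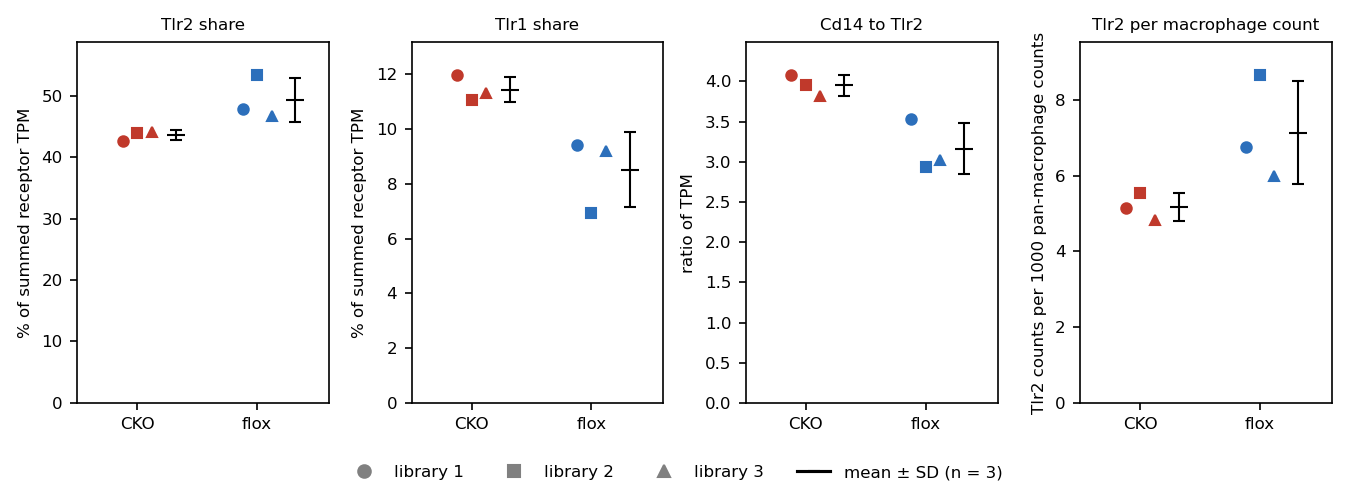
Share of Tlr2 and of Tlr1 in the summed receptor TPM, the ratio of Cd14 to Tlr2 in TPM, and Tlr2 counts per 1000 pan-macrophage counts, with CKO left of flox, a marker for each library and the mean ± SD (n = 3). In each panel the 3 CKO values lie apart from the 3 flox values: lower for both Tlr2 measures, higher for the Tlr1 share and for Cd14 to Tlr2. The measures shown were chosen because their groups do not overlap. Each of them depends on Tlr2, so they are not separate results.

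Haemoglobin genes parted the libraries without regard to the label. They were above 100 CPM in CKO 1, flox 2 and flox 3, at 1765 to 4265 CPM for a list of 5 erythroid genes, and below 1 CPM in CKO 2, CKO 3 and flox 1. Among the libraries with little haemoglobin, 8 of the 10 members had a positive log2 ratio of CKO to flox, and among those with much, 2 of 10. The direction turned for 6 members. For Tlr4 the log2 ratio was 0.78 (CKO 2 and CKO 3 over flox 1) and -0.58 (CKO 1 over flox 2 and flox 3), for Tlr7 it was 0.65 and -0.95, and for Tlr2 it was 0.20 and -0.83. Each of these ratios has a lone library on 1 side and no test. The shares of all tested genes with positive ratios, or with a turned direction, were not computed. These counts are thus not shown to be particular to the members.

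Markers of other cells also differed between libraries, some of them of cells that a gate on CD45 and intermediate CD11b would leave out (glia, vascular cells and most lymphocytes). A list of 10 monocyte genes, of which 8 had a positive fold change with a median log2 value of 0.89, summed to 860.0, 1317 and 1253 CPM in CKO 1 to 3, against 1049.7, 974.75 and 787 CPM in flox 1 to 3. Its genes did not move together. Fn1 was at 376, 146 and 159 CPM in CKO, against 151, 576 and 486 CPM in flox. Ly6c2 was at 84.9, 194 and 286 CPM in CKO, against 258, 18.0 and 24.9 CPM in flox, with flox 1 near CKO 3. A list of 8 homeostatic microglial genes, of which 7 had a negative fold change, summed to 1101, 1349.95 and 907 CPM in CKO, against 881, 2694 and 1808 CPM in flox. Sall1, a microglial transcription factor gene, was at 1.16, 1.84 and 1.54 CPM in CKO, against 0.969, 17.5 and 16.8 CPM in flox, so that flox 1 lay with the CKO libraries. Cx3cr1 was at 130, 188 and 111 CPM in CKO, against 221, 476 and 323 CPM in flox. It was the only 1 of the 8 without overlap, where 4.12% of all tested genes were lower in CKO without overlap. At an unadjusted p under 0.05 by edgeR there were 2 of the 8, where 2.81% of all tested genes stood. Of 13 neutrophil genes, 4 (Mpo, Elane, Camp and Ngp) were at 0 in every library and 5 had counts in every library. The list summed to 55.4 to 208 CPM in CKO and 65.9 to 240.2 CPM in flox. S100a8 was uneven, at 72.5, 4.10 and 104 CPM in CKO 1 to 3, against 143, 15.4 and 18.8 CPM in flox 1 to 3. Csf3r was at 19.8, 44.8 and 36.4 CPM in CKO, against 22.6, 36.0 and 28.9 CPM in flox. A list of 6 B cell genes summed to 16.9 to 33.7 CPM in CKO and 13.7 to 42.0 CPM in flox, and 6 plasmacytoid dendritic cell genes to 636 to 1116 CPM in CKO and 642 to 857 CPM in flox. Most of that last sum was Bst2, which other cells also express, and Siglech, which is on the microglial list as well, while Klk1, Ccr9 and Cox6a2 were at 0 to 11.6 CPM. A list of 8 dendritic cell genes summed to 146 to 270.1 CPM in CKO and 82.7 to 254 CPM in flox, 8 T and NK cell genes to 44.3 to 145 CPM in CKO and 57.4 to 142 CPM in flox, and 7 vascular genes to 60.7 to 219 CPM in CKO and 63.2 to 249 CPM in flox. A list of 8 glial genes summed to 13261, 40898 and 29492 CPM in CKO, against 16262, 14052 and 12272 CPM in flox, nearly all of it Apoe, which macrophages also express. No member of any list was called over all genes, and the part of these cells in the receptor levels was not tested.

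Of the receptors outside the chosen set, Tlr5, the flagellin receptor, was low, where the floor of 3 counts equals 0.145 to 0.251 CPM. It was at 0.797, 2.34 and 3.34 CPM in CKO, against 0.969, 0.0518 and 0.379 CPM in flox. Tlr12 was at 2.15 to 10.2 CPM in CKO and 2.15 to 8.57 CPM in flox, a range like that of Tlr9. Tlr11 did not pass the filter on low counts, with 0 to 5 counts in CKO and 0 to 22 in flox.

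Of 92 tested genes around the receptors, on 7 lists from co-receptors to induced targets, 0 passed the edgeR test in either direction. Fold changes were above 0 for 53 and below 0 for 39, and the median log2 value was 0.07. Over all tested genes, 49.4% were below 0. Groups that did not overlap were found for 3 of the 92 (Traf6, Ccl5 and Cd80), all higher in CKO, beside 3.88% of all tested genes. Among 10 co-receptor and accessory genes, Cd36 included, 7 were negative. Cd180, a relative of the receptors that restrains TLR4 in some cells, was at 56.3, 112 and 72.1 CPM in CKO, against 95.3, 134 and 103 CPM in flox (log2 fold change -0.47, SE 0.27, adjusted p = 0.9996 by edgeR).

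Among 15 genes of endosomal receptor folding, transport and processing, 9 were positive and 6 negative. Hsp90b1, the chaperone gp96 on which most Toll-like receptors depend for folding, was at 568, 545 and 417 CPM in CKO, against 540.0, 767 and 712 CPM in flox (log2 fold change -0.40, SE 0.20). Slc29a3, a lysosomal nucleoside transporter, was at 109.9, 158 and 192 CPM in CKO, against 142, 96.7 and 103 CPM in flox (0.43, SE 0.24). Ctsl, a cathepsin that cleaves endosomal receptors, was at 292, 514 and 369 CPM in CKO, against 312, 705 and 657 CPM in flox (-0.51, SE 0.33).

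Among the adaptors 4 of 6 were positive, with a median log2 value of 0.05. Myd88 was at 68.7, 88.6 and 59.2 CPM in CKO, against 76.8, 69.0 and 50.1 CPM in flox. Ticam1, which encodes TRIF, was at 3.74, 7.62 and 11.4 CPM in CKO, against 6.39, 6.32 and 6.32 CPM in flox, and Sarm1 at 9.38, 1.84 and 2.31 CPM against 5.23, 5.34 and 9.86 CPM. Of 23 kinases, ligases and transcription factors downstream, 19 were positive and 4 negative, with a median of 0.13, where 49.4% of all tested genes were negative. Ikbke, a kinase that acts on IRF3, was at 3.62, 12.9 and 6.27 CPM in CKO, against 4.31, 2.85 and 3.10 CPM in flox (log2 fold change 1.14, SE 0.52). Irak2 was at 19.5, 44.0 and 34.7 CPM in CKO, against 25.5, 18.8 and 19.3 CPM in flox (0.62, SE 0.30), and Traf6, the ubiquitin ligase below MyD88, at 17.0, 24.1 and 20.7 CPM against 16.7, 15.5 and 16.5 CPM (0.34, SE 0.21).

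Negative regulators split 9 to 7. Tnip1, a partner of the inhibitor A20, was at 12.2, 26.0 and 25.9 CPM in CKO, against 15.1, 14.25 and 10.4 CPM in flox (log2 fold change 0.69, SE 0.33), and the phosphatase gene Dusp1 at 482, 745 and 533 CPM against 866, 776 and 579 CPM (-0.34, SE 0.23). Pdcd4 was at 15.1, 26.0 and 30.6 CPM against 21.2, 19.1 and 19.2 CPM (0.27, SE 0.27). Of 20 tested target genes that receptor signalling induces, 7 were positive and 13 negative, with a median of -0.22. Cd40, a co-stimulatory receptor gene, had the smallest p of all 92 genes, at 38.5, 46.1 and 27.9 CPM in CKO, against 29.4, 14.4 and 10.7 CPM in flox (log2 fold change 1.04, SE 0.38, unadjusted p = 0.0261 and adjusted p = 0.9996 by edgeR). The chemokine gene Ccl5 was at 334, 519 and 437 CPM in CKO, against 313, 150.2 and 28.1 CPM in flox (1.39, SE 0.71), and Ccl2 at 193, 259 and 219 CPM against 283, 647 and 236 CPM (-0.80, SE 0.37).

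The genes whose levels followed a receptor most closely over the 6 libraries were found by the Euclidean distance of log2 CPM, each centred on its own mean. For Tlr2 these were Irak3, an inhibitory kinase-like gene of the same pathway (distance 0.176), and Lacc1 (0.197). Irak3 was at 3.92, 8.29 and 5.45 CPM in CKO, against 5.76, 9.48 and 5.50 CPM in flox. Tlr4 was nearest to Tirap, the adaptor that brings MyD88 to TLR2 and TLR4 (0.192), and Gpr160 (0.210). Tirap was at 11.04, 17.6 and 14.2 CPM in CKO, against 10.3, 19.0 and 13.2 CPM in flox. For Tlr6 the nearest were Il16 (0.0641) and Laptm5 (0.0887), and for Cd14 they were Myo1g (0.220) and Ing5 (0.226). These are descriptions over 6 libraries, some of which may share a mouse.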

How the data were processed

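The authors deposited 1 table of estimated counts per gene symbol, unscaled, for the 6 libraries. The submitters' processing notes name fastp 0.18.0, HISAT2 2.2.4 and the mm10 build. How reads were counted, on which annotation and with what strand setting, is not given in the sources used here. Of 21956 rows, 83 without a symbol were left out (0.0122% to 0.0185% of counts) and 22 repeated symbols were summed. Counts were rounded and tested with edgeR 4.0.16 (R 4.3.3): TMM scaling, filterByExpr, quasi-likelihood with robust dispersion and group as the sole term, Benjamini-Hochberg adjustment at 0.05, a prior count of 0.125. DESeq2 1.42.0 and limma 3.58.1 were alternatives. TPM used GENCODE M21 exon lengths (19748 genes) and carries no TMM factor. Group means of Tlr4, Tlr6, Tlr7 and Cd14 lie higher in CKO in CPM and lower in TPM. Floors of 3 counts and intervals cover counting or model error only.

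Named genes were all members, Cd36, up to 3 tested genes of smallest p on each pathway list and the 2 nearest genes of Tlr2, Tlr4, Tlr6 and Cd14; Ly96 and Cd180 come from the co-receptor list. Other genes come from the marker lists, and Tlr11 is the untested gene of its list. Cd80, Gm45542, the marker genes named singly (Cx3cr1, P2ry12, Tmem119, Sall1, Fn1, Ly6c2, Ctss, Csf1r, Tyrobp, Fcer1g, Spi1, Apoe, Bst2, Siglech, Klk1, Ccr9, Cox6a2, Mpo, Elane, Camp, Ngp, S100a8 and Csf3r) and the within-library ratios were chosen after values were seen. The members and lists were chosen with earlier results of these data known. A gene of the microglial list is not reported here and was left out of its sum.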

Additional observations from a re-analysis of the deposited data

How the results depend on the processing

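No member was called under any of the 20 alternatives run, and no pathway gene either. The number of genes called was 16 with DESeq2 and 2 with haemoglobin above 100 CPM as a covariate, against 0 in the main fit, which had 379 at an unadjusted p under 0.05. Scaling to pan-macrophage counts moved the median of all genes to -0.20 and turned Tlr4 to -0.16, Tlr6 to -0.18, Tlr7 to -0.29, Tlr13 to -0.03 and Cd14 to -0.14. Library totals alone moved that median to -0.12 and turned Tlr4 to -0.03, Tlr6 to -0.06 and Tlr7 to -0.11. Tlr7 also turned to -0.11 when libraries sharing a code were summed, to -0.07 with them linked, and to -0.15 with the haemoglobin covariate, and Cd14 to -0.03 with codes summed and -0.02 with that covariate. Members that kept their sign under the 14 alternatives that leave no library out also moved by over 1.5 times: Tlr1 spanned 0.17 to 0.49, Tlr2 -0.46 to -0.13, Tlr3 -0.52 to -0.08, Tlr8 0.34 to 0.69 and Tlr9 -0.64 to -0.14. With the title number as a replicate block Tlr7 turned to -0.04, and 0 genes were called. Same-numbered libraries correlated at -0.32, 0.01 and -0.33 in their deviations from the group means, none of them clearly above 0. With 3 libraries a group and no values for different-numbered pairs, this cannot decide whether the numbers pair libraries.

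With 1 library left out, the log2 fold change spanned 0.21 to 0.65 for Tlr1, -0.46 to 0.09 for Tlr2, -0.48 to 0.03 for Tlr3, -0.11 to 0.41 for Tlr4, -0.17 to 0.34 for Tlr6, -0.31 to 0.33 for Tlr7, 0.13 to 0.90 for Tlr8, -1.0 to 0.21 for Tlr9, 0.00 to 0.36 for Tlr13 and -0.14 to 0.36 for Cd14. The lower end came without CKO 2 for all but Tlr3 (without CKO 3). All 10 members were positive without CKO 1, and 7 were negative without CKO 2, with Tlr13 at 0.00. The differences within libraries were chosen because their groups do not overlap, so leaving out a library cannot turn their sign. Tlr2's share differed by -5.78 percentage points (-7.08 to -3.77, the last without flox 2), the log2 ratio of Cd14 to Tlr2 by 0.32 (0.27 to 0.41) and that of Tlr1 to Tlr2 by 0.62 (0.42 to 0.72). The causes were not tested.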
